A study of Saccharomyces cerevisiae with 8 samples.

Results

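The 10 *ADE* genes that encode the enzymes of de novo purine synthesis in *Saccharomyces cerevisiae* were taken by name from a table of RNA-seq counts for 6120 genes. They are *ADE4*, *ADE5,7*, *ADE8*, *ADE6*, *ADE2*, *ADE1*, *ADE13*, *ADE16*, *ADE17* and *ADE12*. All 10 were found, and all 10 were among the 5909 genes that passed the filter on low counts. They were picked by name without a rule on measured values, although earlier results of these data were known. The study addressed how SUMO, a small protein that is attached to other proteins, affects transcription by RNAPII when general transcription factors carry it. mRNA was measured in 4 strains with 2 libraries each, which the submitters describe as independent replicates. PolyA RNA came from cultures in mid-log growth in SC medium at 30°C.

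The Tfg1-K60,61R-HA strain expresses the TFIIF subunit Tfg1 from its own locus with an HA tag and with the 2 Lys residues given in its name replaced by Arg, which impairs Tfg1 sumoylation. This strain also carries an inadvertent N462Q substitution in Tfg1, so its 3 substitutions cannot be told apart. The Tfg1-HA strain carries the tag without substitutions, and in both Tfg1 strains the tag is linked to the *TRP1* gene of *Kluyveromyces lactis* as a marker. In *ubc9-6*, the gene of the SUMO-conjugating enzyme Ubc9 is replaced by tandem copies of the mutant allele *ubc9-1* with *TRP1* between them. W303a is the parent strain, of mating type a, which carries ura3-52, trp1Δ2, leu2-3_112 and his3-11 together with ade2-1 and also can1-100. All 4 strains therefore share the *ade2-1* nonsense allele, so the *ADE2* mRNA counted here is that of a mutant gene in every strain. W303a is the only strain of the 4 without a *TRP1* marker, and this difference cannot be told apart from the other differences between W303a and the rest.

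Total counts were between 26674458 and 34614232 per library, and levels are given as CPM, the count of a gene scaled to a common library size, after TMM scaling. The labels were checked first. *UBC9* was at 184 and 189.5 CPM in *ubc9-6*, against 74.1 to 83.2 CPM in the other 6 libraries, and *TFG1* was at 160.4 to 172 CPM in the Tfg1 strains, against 193 to 201 CPM in *ubc9-6* and W303a. Counts per gene do not show single substitutions. Genes of mating type a summed to 1110 to 1578 CPM per library and genes of mating type alpha to 31.1 to 45.6 CPM. The replicates of Tfg1-K60,61R-HA were the least alike of the 4 pairs. Their log2 difference had an SD across genes of 0.29, against 0.14 to 0.18 for the other strains. For the genes whose differences rest most on this pair, values without each of its libraries are given below.

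De novo synthesis builds the purine ring stepwise on phosphoribosyl pyrophosphate (PRPP) until inosine monophosphate (IMP) is reached, and a short branch then converts IMP to AMP. The first enzyme, Ade4, is inhibited by the purine nucleotides that the pathway makes. Transcription of most of the genes is activated by Bas1 together with Pho2 when purines are scarce, and Gcn4, the activator of amino acid synthesis genes, recognizes a related sequence.

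Sequences before 5 of the genes are shown because the genes share a known regulatory sequence and yet differed in how far their mRNA levels moved. The core sequence bound by Bas1, TGACTC, was searched on both strands in the 500 bases before each start codon, in the RefSeq genome of the S288C reference strain (sacCer3), which is not the sequence of W303a itself. The longer Gcn4 site TGACTCA contains the same letters, so the search does not separate the factors. The core was found before 9 of the 10 *ADE* genes, all except *ADE16*, and before 765 of 6095 genes (12.6%) in all. A match is a run of letters and not a measured binding site. The stretches printed here run 5′ to 3′ on the strand of the gene, with 20 bases on either side of the matches shown, and capitals mark the core on either strand (GAGTCA is its reverse complement). *ADE4* and *ADE17* are shown because their mRNA levels differed most between strains, *ADE12* and *ADE1* because they came next after *ADE17* between the Tfg1 strains. *ADE5,7* is an example with 2 matches on the strand of the gene that passed the test in no comparison below. *ADE8*, which is not printed, is another. For *ADE12* only the nearer of its 2 matches is shown, and the other begins 457 bases before the start codon. The stretches lie at chrXIII:867423-867468 (minus strand), chrXIII:509432-509607 (minus strand), chrXIV:234171-234216, chrI:169129-169183 and chrVII:56245-56323, in the order given.
ADE4: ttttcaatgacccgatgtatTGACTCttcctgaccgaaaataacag
ADE17: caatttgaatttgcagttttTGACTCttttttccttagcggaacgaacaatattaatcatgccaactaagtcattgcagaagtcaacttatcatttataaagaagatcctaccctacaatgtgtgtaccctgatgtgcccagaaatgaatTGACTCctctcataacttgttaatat
ADE12: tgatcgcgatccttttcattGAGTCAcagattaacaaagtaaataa
ADE1: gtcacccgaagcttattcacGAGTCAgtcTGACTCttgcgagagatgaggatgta
ADE5,7: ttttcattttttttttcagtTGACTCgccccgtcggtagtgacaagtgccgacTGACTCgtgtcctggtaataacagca

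The only match before *ADE4* begins 357 bases before its start codon, which is farther out than the nearest match of each of the other 8 genes. For those 8 genes the nearest match begins between 153 and 276 bases before the start codon. *ADE5,7*, *ADE8*, *ADE2*, *ADE1*, *ADE17* and *ADE12* each have 2 matches. *ADE4*, *ADE6* and *ADE13* have 1 each.

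**Figure D1:**
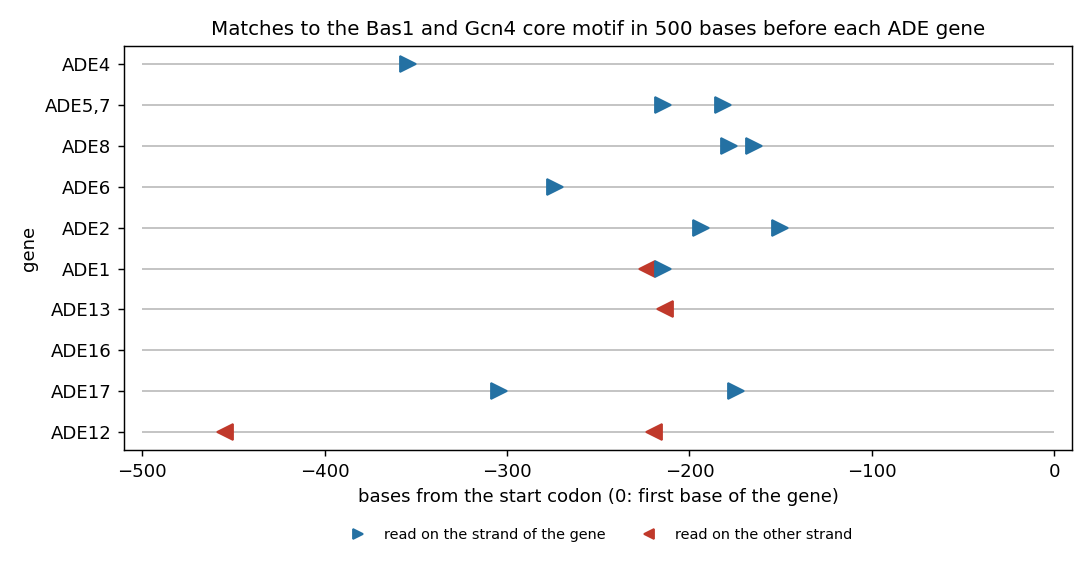
Positions of the TGACTC core before each of the 10 genes, with distance from the start codon in bases on the horizontal axis and 1 gene per row. Arrowheads point right where the core reads on the strand of the gene and left where it reads on the other strand. The match of *ADE4* at 357 bases stands farther out than the nearest match of the other genes, and the row of *ADE16* is empty.

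All 10 genes were well expressed. Together they took between 0.203% and 0.265% of the counts in each library. Compared per kilobase of exon, the mean level over the 8 libraries was highest for *ADE13* at 234 CPM per kb and lowest for *ADE2*, which carries the *ade2-1* mutation, at 44.5 CPM per kb. *ADE2* ranked 3038 among the 5909 genes by this measure and *ADE13* ranked 748. The other 8 genes lay between *ADE4* at 74.0 CPM per kb and *ADE16* at 214 CPM per kb. None of the 10 overlaps another counted gene, so counting without strand did not mix them with a neighbour on the opposite strand that was itself counted.

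*ADE4* (chrXIII:865559-867091, minus strand) encodes PRPP amidotransferase, which commits PRPP to the pathway. Its level was 149.9 and 122 CPM in Tfg1-K60,61R-HA, 122 and 113 CPM in Tfg1-HA, 153 and 163 CPM in *ubc9-6*, and 41.5 and 42.8 CPM in W303a. All 6 libraries of the other strains lay above both W303a libraries. *ubc9-6* was the highest strain and did not overlap Tfg1-K60,61R-HA, the next, whose libraries overlapped those of Tfg1-HA. No other member showed this pattern.

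*ADE5,7* (chrVII:56482-58890) encodes an enzyme with the activities of glycinamide ribotide synthetase and aminoimidazole ribotide synthetase. It was at 378 and 322 CPM in Tfg1-K60,61R-HA, 337 and 283 CPM in Tfg1-HA, 327 and 336 CPM in *ubc9-6*, and 322 and 349 CPM in W303a. Each strain overlapped its neighbour in the order of the means. *ADE8* (chrIV:1288215-1288859, minus strand), which encodes glycinamide ribotide transformylase, was at 78.9 and 72.7 CPM in Tfg1-K60,61R-HA, 71.9 and 66.0 CPM in Tfg1-HA, 73.6 and 76.8 CPM in *ubc9-6*, and 74.6 and 75.6 CPM in W303a. Tfg1-HA was the lowest strain and did not overlap W303a, while the other 3 strains overlapped.

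*ADE6* (chrVII:611889-615965, minus strand) encodes formylglycinamidine ribotide synthetase. It was at 412 and 375 CPM in Tfg1-K60,61R-HA, 377 and 346 CPM in Tfg1-HA, 456 and 455 CPM in *ubc9-6*, and 415 and 447 CPM in W303a. *ubc9-6* and W303a were both above all 4 libraries of the Tfg1 strains. *ADE2* (chrXV:564476-566191, minus strand) encodes aminoimidazole ribotide carboxylase, whose loss in *ade2* mutants makes colonies red. Its mutant mRNA was at 98.2 and 77.1 CPM in Tfg1-K60,61R-HA, 72.5 and 70.5 CPM in Tfg1-HA, 72.2 and 80.7 CPM in *ubc9-6*, and 65.9 and 73.5 CPM in W303a. Replicate 1 of Tfg1-K60,61R-HA was the highest library, and neighbouring strains in the order of the means overlapped.

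*ADE1* (chrI:169375-170295) encodes SAICAR synthetase. It was at 162.5 and 122 CPM in Tfg1-K60,61R-HA, 122 and 101 CPM in Tfg1-HA, 130.1 and 138 CPM in *ubc9-6*, and 115 and 122 CPM in W303a. *ubc9-6* lay above W303a without overlap. *ADE13* (chrXII:844282-845730) encodes adenylosuccinate lyase, which works both in the main pathway and in the AMP branch. It was at 387 and 336 CPM in Tfg1-K60,61R-HA, 320.4 and 289 CPM in Tfg1-HA, 359 and 378 CPM in *ubc9-6*, and 311 and 327.5 CPM in W303a. The 4 libraries of the Tfg1-K60,61R-HA and *ubc9-6* strains were all above the 4 of Tfg1-HA and W303a.

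*ADE16* (chrXII:199540-201315, minus strand) and *ADE17* (chrXIII:507502-509280, minus strand) encode isozymes that carry out the last steps to IMP. Their coding sequences are 74.7% identical, with no identical run longer than 19 bases, and reads that matched more than 1 place were not counted. *ADE16* was at 401 and 395.5 CPM in Tfg1-K60,61R-HA, 395 and 389.7 CPM in Tfg1-HA, 360.5 and 373 CPM in *ubc9-6*, and 368 and 359 CPM in W303a. It was the flattest of the 10. *ADE17* was at 341 and 211 CPM in Tfg1-K60,61R-HA, 194.5 and 153 CPM in Tfg1-HA, 219.5 and 258 CPM in *ubc9-6*, and 152 and 180.0 CPM in W303a. The ratio of *ADE17* to *ADE16* CPM was 0.85 and 0.534 in Tfg1-K60,61R-HA, 0.492 and 0.392 in Tfg1-HA, 0.609 and 0.691 in *ubc9-6*, and 0.412 and 0.502 in W303a. *ADE16* exceeded *ADE17* in every library, by the least in replicate 1 of Tfg1-K60,61R-HA.

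*ADE12* (chrXIV:234413-235714) encodes adenylosuccinate synthase, the first enzyme of the AMP branch. It was at 299.9 and 225 CPM in Tfg1-K60,61R-HA, 215 and 189 CPM in Tfg1-HA, 269 and 299 CPM in *ubc9-6*, and 220.1 and 229 CPM in W303a. Tfg1-HA was the lowest strain and did not overlap W303a.

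**Figure D2:**
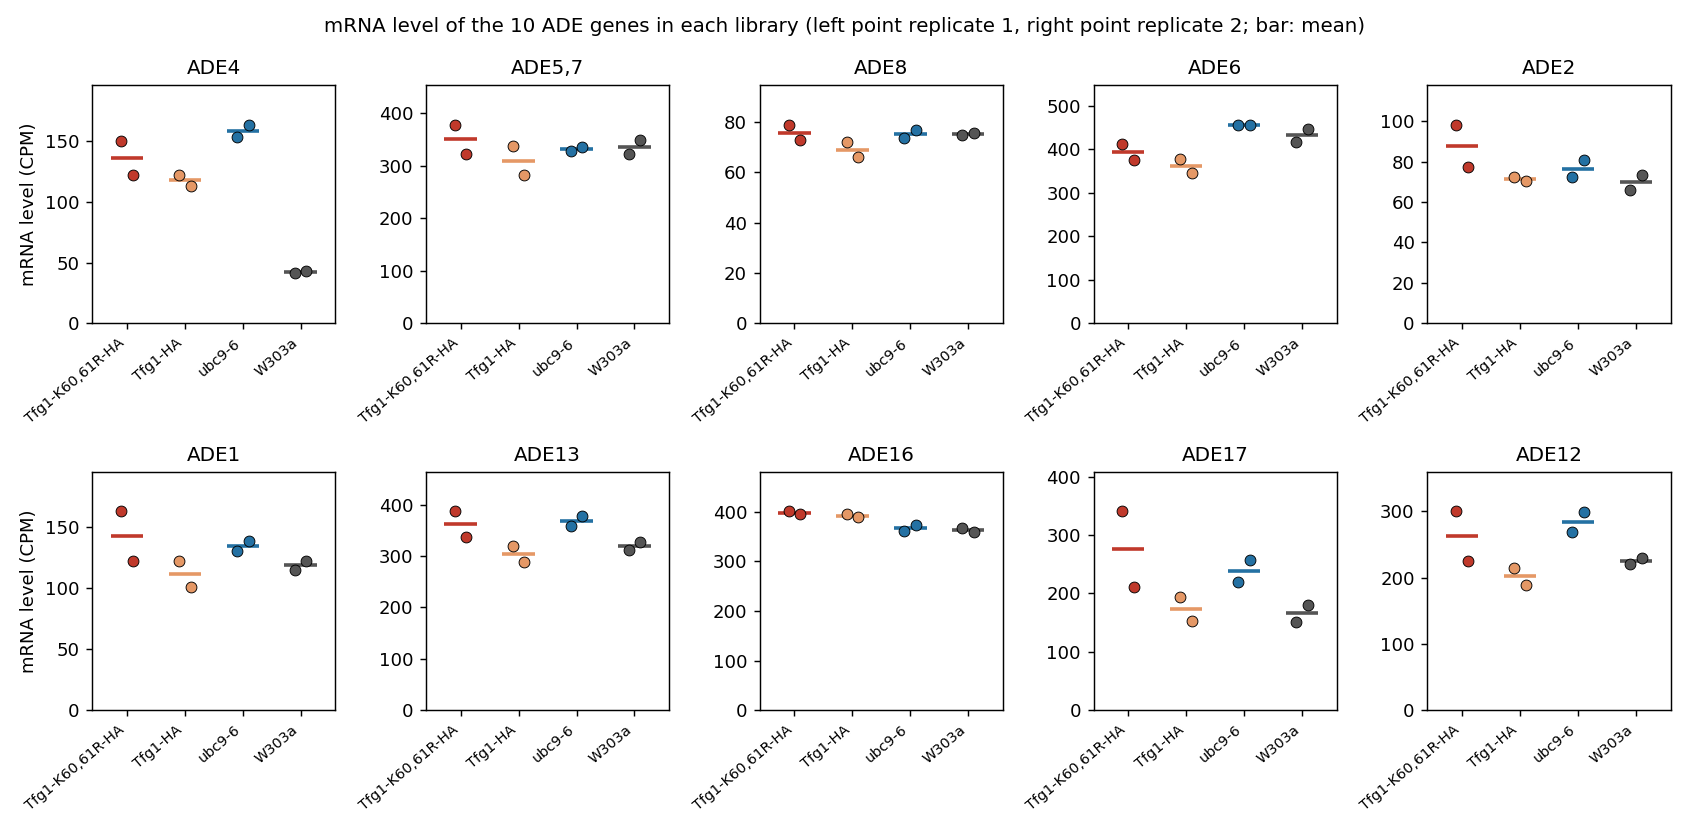
mRNA level in CPM of each of the 10 *ADE* genes, in pathway order, with strains on the horizontal axis of each panel. Points are the 2 libraries of a strain and bars are their means. *ADE4* alone has W303a, at 41.5 and 42.8 CPM, below every library of the other strains by a wide gap, while *ADE16* is nearly level.

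The level of *ADE4* was compared with W303a in 3 strains. These comparisons share the W303a libraries and are not independent of each other. Bulk RNA does not tell more mRNA per cell from more cells that express the gene. In *ubc9-6*, *ADE4* was 3.75-fold higher (95% confidence interval 3.22 to 4.36, log2 fold change 1.91, edgeR adjusted p = 1.54e-05). In Tfg1-HA it was 2.79-fold higher (2.40 to 3.24, log2 1.48, edgeR adjusted p = 2.75e-05), and in Tfg1-K60,61R-HA it was 3.23-fold higher (2.77 to 3.76, log2 1.69, edgeR adjusted p = 1.38e-05). *ADE4* had the 15th highest log2 fold change of 5909 genes in *ubc9-6*, and the 39th highest in each of the Tfg1 strains. The call held in each of these 3 comparisons under every alternative that was run, and the largest adjusted p was 0.00113 in *ubc9-6*, 0.00145 in Tfg1-HA and, with the Lys substitutions, 0.00104.

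Genes on either side of *ADE4* moved far less. *DYN3* and *LIP1* lie beyond its end and *ATM1* and *YME2* beyond its start. Their log2 fold changes against W303a lay between -0.28 and 0.30 in the 3 strains. In Tfg1-K60,61R-HA, *LIP1* and *DYN3* were higher than in W303a (log2 0.30 and 0.15, edgeR adjusted p = 0.00161 and 0.0407). *ATM1*, the nearest gene before *ADE4*, was at 74.6 and 79.2 CPM in Tfg1-K60,61R-HA, 79.4 and 77.8 CPM in Tfg1-HA, 89.6 and 87.6 CPM in *ubc9-6*, and 95.6 and 90.8 CPM in W303a. It was lower in both Tfg1 strains, where *ADE4* was higher (log2 -0.28 in Tfg1-K60,61R-HA and -0.24 in Tfg1-HA, edgeR adjusted p = 0.00183 and 0.00384).

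**Figure D3:**
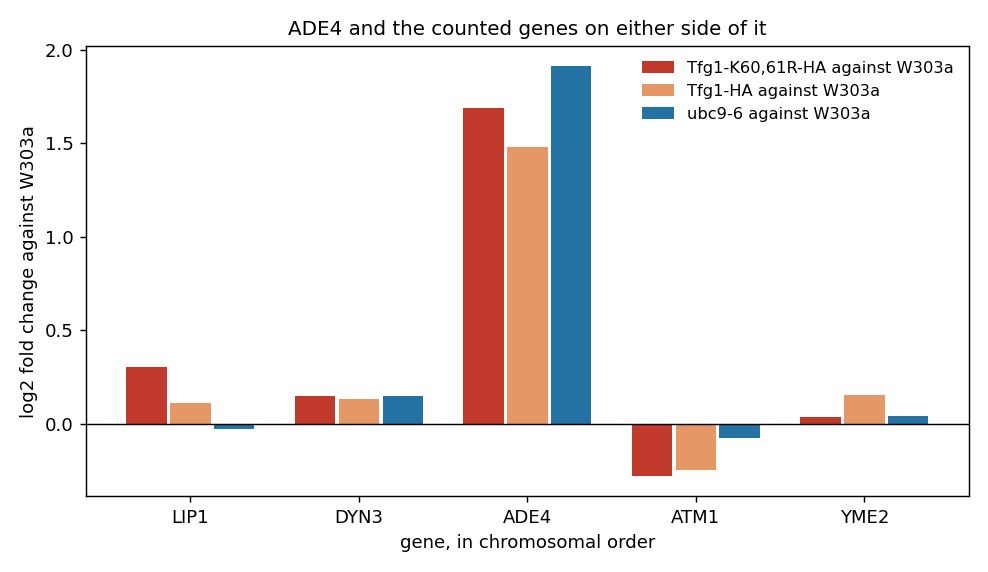
log2 fold change against W303a of *ADE4* and of the 2 nearest counted genes on each side, in chromosomal order, for Tfg1-K60,61R-HA, Tfg1-HA and *ubc9-6*. The bars of *ADE4* reach 1.48 to 1.91, and those of its neighbours stay between -0.28 and 0.30.

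Among 5698 genes that averaged 50 counts or more, 1099 had both W303a libraries below all 6 others. In 18 of these the lowest other library was more than 2-fold above the higher W303a library. *ADE4* was the 4th of them, at 2.63-fold, behind *HSP26*, *DDR2* and *CYC7*. *HSP26* and *DDR2* are stress-response genes, and *CYC7* encodes a cytochrome c isoform that is made when oxygen is low. This count was chosen only once the values were known. The 7 genes of a stress-response list were all called higher than in W303a in each of the 3 strains. Of all genes, 11.4% were called higher in *ubc9-6*, 21.5% in Tfg1-HA and 24.9% in Tfg1-K60,61R-HA. The 7 genes summed to 2914 and 2425 CPM in Tfg1-K60,61R-HA, 2545 and 2543 CPM in Tfg1-HA, 1714 and 1931 CPM in *ubc9-6*, and 870.2 and 860.1 CPM in W303a. Of the 3 strains, *ubc9-6* had the lowest stress sum and the highest *ADE4* level. The part of the stress-response genes in the level of *ADE4* was not tested.

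The comparison of Tfg1-K60,61R-HA with Tfg1-HA asks what the Lys substitutions and N462Q change together in a tagged strain. None of the 10 genes passed the threshold (edgeR adjusted p between 0.446 and 0.877), and 0% of all 5909 genes did. All 10 had a log2 fold change above 0, against 2886 of all 5909 genes. The 10 values come from the same libraries and are not independent of each other. The median was 0.23, against -0.0026 over all genes. At an unadjusted p under 0.05, 7 of the 10 were higher, against 6.30% of all genes, and the libraries of 6 did not overlap and were higher, against 18.4% of all genes. The likelihood ratio test of edgeR and the Wald test of DESeq2 also called 0 of the 10. Over all genes they called 3 of 5909 and 36 of the 423 genes to which DESeq2 gave an adjusted p. The study's own edgeR analysis of these strains also called a small share of genes, more of them higher than lower.

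*ADE17* had the largest of these differences, 1.59-fold (1.14 to 2.22), at an edgeR adjusted p of 0.446. It was followed by *ADE12* at 1.30-fold (1.07 to 1.59) and *ADE1* at 1.28-fold (1.04 to 1.57), with edgeR adjusted p of 0.446 and 0.481. *ADE17*, *ADE1* and *ADE12* are also on a list that the study drew from these same libraries, so their place at the top is not independent evidence. *ADE2*, *ADE13*, *ADE4*, *ADE5,7*, *ADE8* and *ADE6* lay between 1.09-fold and 1.23-fold. *ADE16* was at 1.01-fold, with an interval of 0.950 to 1.08.

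The 2 libraries of Tfg1-K60,61R-HA gave different values. Of the 10 genes, 8 had their highest level of the 8 libraries in replicate 1, and 6 had their lowest in replicate 2 of Tfg1-HA. The mean of the 10 genes' log2 CPM, each centred on its own mean, was 0.29 and 0.0060 in replicates 1 and 2 of Tfg1-K60,61R-HA, against -0.022 and -0.19 in Tfg1-HA. Without replicate 2 of Tfg1-K60,61R-HA, *ADE4*, *ADE2*, *ADE1*, *ADE13*, *ADE17* and *ADE12* were called higher, with 446 of 5934 genes in all. Without replicate 1, 0 of the 10 and 0 of 5927 genes were called. Leaving out replicate 1 or replicate 2 gave *ADE17* log2 values of 0.28 and 0.97, *ADE12* 0.16 and 0.57, *ADE1* 0.13 and 0.54, and *ADE2* 0.11 and 0.46. *ADE13* had 0.14 and 0.34 and *ADE4* 0.054 and 0.35. For each of these 6 genes the value was lower without replicate 1. Outside the *ADE* genes, replicates 1 and 2 of Tfg1-K60,61R-HA had *LYS1* of lysine synthesis at 161 and 101 CPM. *SNZ1* of vitamin B6 synthesis was at 105 and 31.3 CPM in them. Both were picked for their likeness to the *ADE* genes over these same libraries, so their high values in replicate 1 follow from that choice. What sets replicate 1 apart was not tested.

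**Figure D4:**
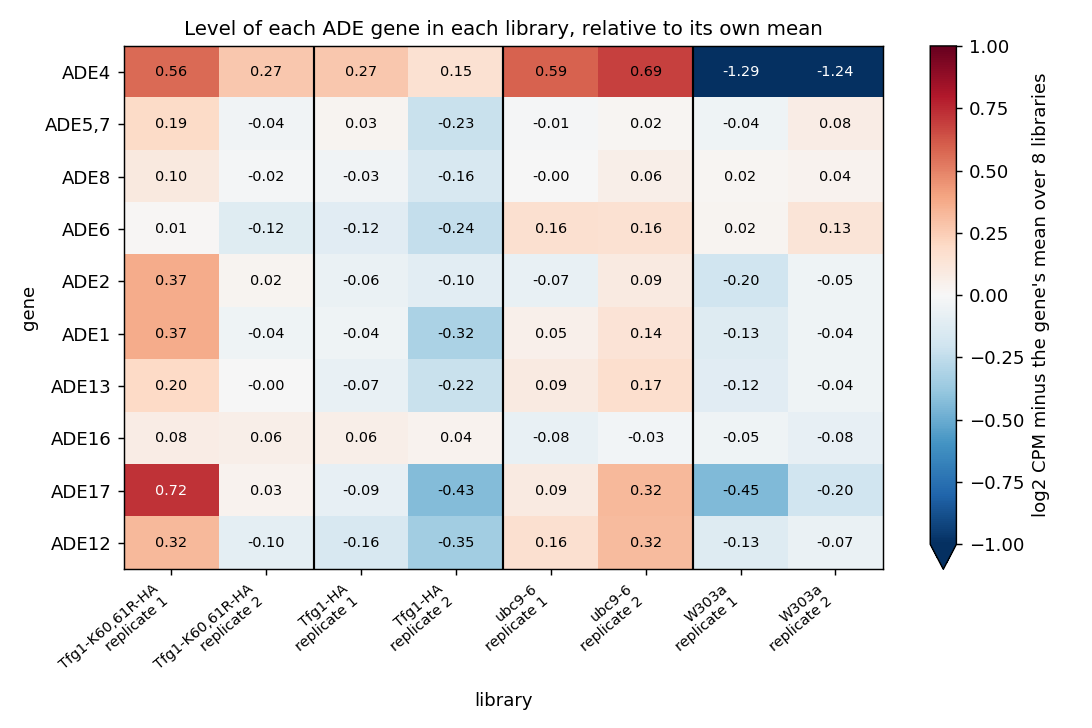
log2 CPM of each gene in each library minus the mean of that gene over the 8 libraries, with genes in rows and libraries in columns (colours end at -1 and 1, and each value is printed). All 10 genes are above their own mean in replicate 1 of Tfg1-K60,61R-HA, where *ADE17* reaches 0.72, and W303a stands at -1.29 and -1.24 for *ADE4*.

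The comparison of *ubc9-6* with W303a asks what reduced SUMO conjugation and the *TRP1* marker change together, since W303a has no such marker. *ADE4* was the only gene of the 10 that passed the threshold, where 20.8% of all genes passed, 11.4% higher and 9.36% lower. At an unadjusted p under 0.05, 4 of the 10 were higher, against 19.0% of all genes, and 6 were higher without overlap, against 35.0% of all genes. Of the other 9 genes, 8 had a log2 fold change above 0, against 2903 of all 5909 genes, and the median over the 9 was 0.13. *ADE17* was 1.44-fold higher (1.03 to 2.01), *ADE12* 1.26-fold (1.04 to 1.54) and *ADE13* 1.15-fold (1.02 to 1.30), each without overlap between the strains, but the edgeR adjusted p values were 0.109, 0.0863 and 0.0885. *ADE5,7*, *ADE8* and *ADE16* were at 0.990-fold, 1.00-fold and 1.01-fold of W303a, with intervals from 0.849 to 1.15, from 0.914 to 1.10 and from 0.945 to 1.08. These calls depend on the spread that is assumed. When only the 4 libraries of these strains were fitted, *ADE1*, *ADE13*, *ADE17* and *ADE12* were called as well (adjusted p = 0.0190, 0.00874, 0.0020 and 0.00163), among 2090 of 5900 genes. DESeq2 called *ADE4* and *ADE13*.

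Tfg1-HA was compared with W303a to see what the tagged strain itself changes. Here *ADE4* was higher and *ADE6* lower (0.837-fold, 0.756 to 0.927, log2 -0.26, edgeR adjusted p = 0.0127), where 43.0% of all genes passed, 21.5% in each direction. The other 8 genes lay between 0.899-fold and 1.08-fold of W303a and did not pass. Without replicate 2 of Tfg1-HA or without replicate 2 of W303a, *ADE6* no longer passed (adjusted p = 0.0938 and 0.102).

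In Tfg1-K60,61R-HA against W303a, 4 of the 10 genes were higher, where 49.4% of all genes passed, 24.9% higher and 24.5% lower. Besides *ADE4* they were *ADE17* (1.66-fold, 1.19 to 2.33, edgeR adjusted p = 0.0197), *ADE2* (1.26-fold, 1.06 to 1.49, edgeR adjusted p = 0.0331) and *ADE16* (1.10-fold, 1.03 to 1.17, edgeR adjusted p = 0.0286). Only *ADE4* held when 1 library was left out in turn, with log2 values of 1.53 to 1.83. Without replicate 1 and without replicate 2 of Tfg1-K60,61R-HA, the log2 values of *ADE17* were 0.35 and 1.04, against 0.73 with both. Those of *ADE2* were 0.14 and 0.49, against 0.33, and those of *ADE6* were -0.20 and -0.067, against -0.13. Called higher were 4 of 10 members, against 24.9% of all genes, and called lower were 0 of 10, against 24.5%.

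**Figure D5:**
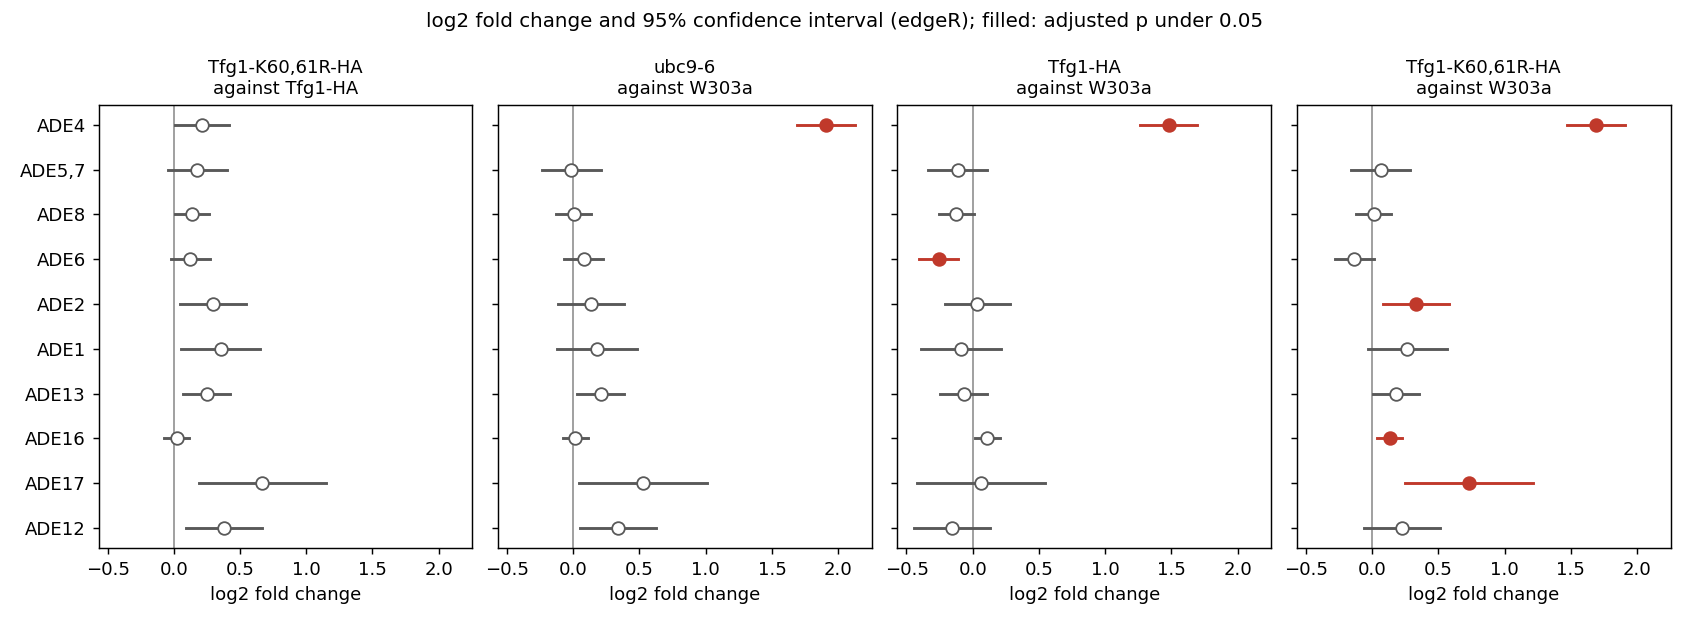
log2 fold change (points) and 95% confidence interval (lines) of each gene in 4 comparisons. Filled points passed an adjusted p of 0.05. *ADE4* lies at 1.48 to 1.91 in the comparisons with W303a and at 0.21 between the Tfg1 strains, where no gene passed and all 10 points are above 0.

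The effect of *ubc9-6* against W303a and that of Tfg1-K60,61R-HA against Tfg1-HA were set against each other in 1 contrast. *ADE4* was the 1 gene of the 10 that differed, where 6.08% of all genes did, 3.22% higher and 2.86% lower. Its log2 difference was 1.70 (1.40 to 1.99, edgeR adjusted p = 0.000381), from 1.91 for *ubc9-6* and 0.21 for the Lys substitutions. The other 9 genes had differences between -0.19 and -0.0065, and none passed (edgeR adjusted p between 0.368 and 0.960). The interval of *ADE17*, from -0.82 to 0.54, spans the whole of either effect, so these libraries do not resolve whether its effects differ.

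Genes that control the pathway were looked at next. *BAS1*, the activator of the *ADE* genes, was at 54.3 and 53.8 CPM in Tfg1-K60,61R-HA, 60.1 and 53.2 CPM in Tfg1-HA, 74.3 and 72.9 CPM in *ubc9-6*, and 74.0 and 76.7 CPM in W303a. Against W303a it was lower in Tfg1-K60,61R-HA and in Tfg1-HA (log2 -0.48 and -0.41, edgeR adjusted p = 0.000354 and 0.000874). In *ubc9-6* its log2 fold change was -0.034 (-0.17 to 0.098) and did not pass. *PHO2*, its partner, passed in none of the comparisons and lay between 53.6 and 56.8 CPM in all 8 libraries. *GCN4* was lower in Tfg1-HA than in W303a (log2 -0.14, edgeR adjusted p = 0.0372) and passed in no other comparison, although its protein level is set mainly by translation.

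Pho2 also acts with Pho4 at genes for phosphate uptake. All 10 genes of the phosphate list were higher in Tfg1-HA and in Tfg1-K60,61R-HA than in W303a, where 21.5% and 24.9% of all genes were. Their median log2 fold changes were 2.11 and 2.87. In *ubc9-6* none of them passed (median -0.23). They summed to 3360 and 2603 CPM in Tfg1-K60,61R-HA, 2756 and 1599 CPM in Tfg1-HA, 446 and 454 CPM in *ubc9-6*, and 475 and 531 CPM in W303a. The part of these genes or of Pho2 in the level of *ADE4* was not tested.

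The supply of one-carbon units, which the ring needs, had 8 genes listed. In *ubc9-6* 2 of them were higher than in W303a, where 11.4% of all genes were called higher. These were *GCV1* and *GCV2* of the glycine cleavage complex (log2 0.91 and 0.74, edgeR adjusted p = 0.0262 and 0.0111). *GCV1* was at 125 and 70.1 CPM in Tfg1-K60,61R-HA, 74.0 and 60.2 CPM in Tfg1-HA, 97.2 and 96.4 CPM in *ubc9-6*, and 54.7 and 48.5 CPM in W303a. Every library of the other strains was above W303a. In Tfg1-HA, *GCV3* and *MTD1* were higher than in W303a and *MIS1* was lower, and in Tfg1-K60,61R-HA *GCV1*, *GCV3* and *MTD1* were higher and *MIS1* was lower. None of the 8 passed in Tfg1-K60,61R-HA against Tfg1-HA, where their median was 0.28.

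Genes that make or reuse precursors moved in both directions. Of the 5 PRPP synthetase genes, *PRS1* and *PRS3* were lower in *ubc9-6* than in W303a (log2 -0.22 and -0.23, edgeR adjusted p = 0.0135 and 0.0133). In Tfg1-HA *PRS5* was lower as well, and in Tfg1-K60,61R-HA 3 were lower and *PRS2* was higher. Of 9 genes for purine uptake and salvage that could be tested, 2 were lower in *ubc9-6*. These were *AAH1*, for adenine deaminase, and *ADO1*, for adenosine kinase (log2 -0.23 and -0.21, edgeR adjusted p = 0.0223 for each). *AAH1* was at 91.3 and 84.5 CPM in Tfg1-K60,61R-HA, 93.6 and 89.9 CPM in Tfg1-HA, 126 and 119 CPM in *ubc9-6*, and 144 and 142 CPM in W303a. Against W303a, 2 of the 9 rose and 2 fell in Tfg1-HA, while in Tfg1-K60,61R-HA 3 rose and 2 fell. Over all genes, 20.8% passed in *ubc9-6*, 43.0% in Tfg1-HA and 49.4% in Tfg1-K60,61R-HA. The salvage counts lie near these shares and do not set the salvage genes apart.

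Of the 7 genes listed for the guanine branch and adenylate kinase, *IMD2*, *IMD3* and *IMD4* were lower than in W303a in all 3 strains. *IMD2*, which encodes IMP dehydrogenase, was at 40.9 and 46.6 CPM in Tfg1-K60,61R-HA, 49.9 and 50.2 CPM in Tfg1-HA, 186 and 187 CPM in *ubc9-6*, and 536 and 519.8 CPM in W303a. It was the lowest log2 fold change of all 5909 genes in both Tfg1 strains against W303a (-3.59 and -3.40). *IMD3* and *IMD4* are close copies of *IMD2*, and since reads that matched more than 1 place were not counted, the levels of the 3 genes are uncertain. A 4th gene was lower in each strain, *GUK1* in *ubc9-6* and *GUA1* in both Tfg1 strains. Of all genes, 9.36% were called lower in *ubc9-6*, 21.5% in Tfg1-HA and 24.5% in Tfg1-K60,61R-HA. *ADK1* was higher in Tfg1-K60,61R-HA. Of the 7 histidine synthesis genes, which are also under Bas1 or Gcn4 control in part, none passed in *ubc9-6* or in Tfg1-HA against W303a. In Tfg1-K60,61R-HA *HIS5* was higher and *HIS6* lower. None of the genes on these lists passed in Tfg1-K60,61R-HA against Tfg1-HA.

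Members were compared with one another over the 8 libraries, as a description with no test. All points share the scaling of their library. With *ADE4* left out of the mean, a choice made after the data had been seen, *ADE1*, *ADE13*, *ADE17* and *ADE12* had Pearson correlations of 0.949 to 0.992 with the mean of the 9 genes, which includes each of them. *ADE2*, *ADE5,7* and *ADE8* had 0.847 to 0.870. *ADE6* at 0.565, *ADE4* at 0.471 and *ADE16* at 0.122 were the least alike. *ADE16* is also the gene without the TGACTC core in the window searched, while *ADE6* and *ADE4* have the core. The part of the core in these correlations was not tested.

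Of 5688 other genes that averaged 50 counts or more, the 8 most like the mean of all 10 members were *ALY2*, *DBF2*, *SRY1*, *YOL118C*, *COS111*, *GCV1*, *RIB5* and *RTC2*, with correlations of 0.946 to 0.970 over 8 libraries. Without *ADE4* in the mean they were *BIO3*, *HIS4*, *LYS1*, *YNL208W*, *CDC34*, *ARO8*, *SHM2* and *SNZ1*, at 0.935 to 0.984, so no gene was on both lists. *HIS4*, which carries out steps of histidine synthesis, was at 658.5 and 523 CPM in Tfg1-K60,61R-HA, 492 and 407 CPM in Tfg1-HA, 523 and 596 CPM in *ubc9-6*, and 479 and 486 CPM in W303a. *SHM2*, the cytosolic serine hydroxymethyltransferase, was at 555 and 385 CPM in Tfg1-K60,61R-HA, 415 and 353 CPM in Tfg1-HA, 490.4 and 511 CPM in *ubc9-6*, and 404 and 409.5 CPM in W303a. Replicate 1 of Tfg1-K60,61R-HA was the highest library and replicate 2 of Tfg1-HA the lowest for both, as for *ADE1* and *ADE12*. Both genes were picked for their likeness to the *ADE* genes, so these shared extremes follow from the choice.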

How the data were processed

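PolyA RNA from 2 cultures of each of 4 strains was sequenced from directional libraries. Per the file headers, the authors counted read pairs on exons of each gene in the sacCer3 annotation with featureCounts 2.0.0 without strand information, and they deposited these counts without normalization, 1 column per library. The exon length in the same deposited table is another value, in bases, as the authors' counter wrote it. HISAT2 2.1.0 and edgeR 3.32.1 are named in the submitters' processing notes. The authors also deposited tables of their own comparisons (log2 fold changes, levels, test scores and p-values), which were not used.

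The 4 strains were modelled together in edgeR 4.0.16, run under R 4.3.3, after TMM scaling and the default filter on low counts, which left 5909 genes. Calls are quasi-likelihood tests with Benjamini-Hochberg adjusted p under 0.05 over these genes, and intervals come from the same fit. Correlations used log2 CPM with a prior count of 2. The members and the gene lists were chosen with earlier results of these data known. All 10 members are named in every comparison, and from the other lists genes that passed may be named. The gene *APT1* shares its name between loci on 2 chromosomes in the table and was left out. Sequences came from the RefSeq genome, whose coordinates matched 99.7% of 5787 genes at a single locus. Alternatives were the likelihood ratio test, DESeq2 1.42.0, RLE scaling, other filters, the replicate number as a block, only the strains compared, and leaving out each library. Tested on simulated counts of 5909 genes for *ubc9-6* against W303a, the procedure called 64 of the 67 genes given a 1.5-fold change. It called 65 of 67 at 2-fold, 66 of 66 at 3-fold, and 12 of the 5709 genes left alone. The simulated spread depended only on the level of a gene and was equal in all strains. These rates therefore need not hold for the real counts, where the spread differed between genes and strains. No test was run over the list of members.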

Additional observations from a re-analysis of the deposited data

Results flagged for a closer look

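The effect on *ADE4* differed between the strain comparisons by a test of the difference itself. The log2 fold change was 1.91 for *ubc9-6* against W303a and 0.21 for Tfg1-K60,61R-HA when set against Tfg1-HA, a difference of 1.70 (edgeR adjusted p = 0.000381). Tfg1-HA, against which Tfg1-K60,61R-HA was set, was itself at 2.79-fold of W303a. Of the 4 strains W303a alone was low, and W303a alone has no *TRP1* marker, so strain background and marker cannot be told apart.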

How the results depend on the processing

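*ADE4* kept its direction and its call against W303a in 3 strains, and in the difference between the effects, under every alternative run. Leaving out 1 library in turn gave log2 values of 1.86 to 1.95 in *ubc9-6*, 1.42 to 1.54 in Tfg1-HA, 1.53 to 1.83 in Tfg1-K60,61R-HA and 1.56 to 1.85 for the difference. The number of *ADE* genes called moved elsewhere. For *ubc9-6* against W303a it was 1, against 2 with DESeq2 and 5 with only the strains compared. For Tfg1-K60,61R-HA against W303a it was 4, against 2 with only the strains compared, and it also moved without 1 library. Without 1 library it was 0 to 6 between the Tfg1 strains and 1 to 2 for Tfg1-HA against W303a. The difference between the effects uses all 4 strains, so a fit of only the strains compared could not be run. Other results changed sign only on leaving out 1 library, and the cause was not tested. For *ubc9-6* the log2 values then ran from -0.071 to 0.044 for *ADE5,7*, -0.028 to 0.032 for *ADE8* and -0.011 to 0.039 for *ADE16*. For Tfg1-HA against W303a they ran from -0.039 to 0.12 for *ADE2*, -0.12 to 0.23 for *ADE17*, -0.25 to 0.0075 for *ADE5,7*, -0.23 to 0.045 for *ADE1* and -0.15 to 0.0057 for *ADE13*. For Tfg1-K60,61R-HA against W303a they ran from -0.057 to 0.17 for *ADE5,7* and -0.047 to 0.071 for *ADE8*. For the difference they ran from -0.031 to 0.018 for *ADE16*, -0.23 to 0.18 for *ADE12*, -0.11 to 0.021 for *ADE6*, -0.33 to 0.017 for *ADE2*, -0.36 to 0.044 for *ADE1*, -0.14 to 0.059 for *ADE13* and -0.45 to 0.24 for *ADE17*. Over all genes, *ubc9-6* against W303a had 1229 calls, against 2090 with only the strains compared and 262 to 659 without 1 library. Tfg1-HA against W303a had 2542, against 1560 to 1921, the difference had 359, against 94 to 672, and the Tfg1 strains had 0 between them, against 0 to 446, without 1 library.

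Libraries with the same replicate number showed no strong shared deviation, with correlations of -0.19 to 0.12 between strains. These correlations cannot tell whether such libraries were handled together. A block for the replicate number left the number of *ADE* genes called at 0 between the Tfg1 strains, at 1 in *ubc9-6*, at 2 in Tfg1-HA and at 4 in the strain with the Lys substitutions, each against W303a, and at 1 for the difference. Over all genes the block gave 0, 1107, 2480, 2847 and 253 calls in the same order. With 2 libraries per strain, differences below about the widths of the intervals given are not resolved, and a lone library is assumed to vary like the other strains.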
